A study of Homo sapiens with 2 samples.

Results

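The genes described here build and police the attachment of chromosomes to the mitotic spindle: 46 genes of the centromere, the kinetochore, the spindle assembly checkpoint and the chromosomal passenger complex. They were chosen by name, as a list of known members of these assemblies. All 46 were found among the 39720 gene symbols of the table, and all passed the filter of 30 counts in the higher library, as did 13850 genes in all. RNA was sequenced from A549, a human lung adenocarcinoma cell line, at day 2 after infection. The shNC group received lentivirus with a negative control hairpin and the shDEPDC1B group lentivirus with a hairpin against DEPDC1B, both with 5 µg/mL polybrene. Each group has 1 library, so what follows compares 2 libraries with no replicate check and no p-value. The labels do not state the hairpin sequences or any selection of the infected cells, and a single hairpin name stands for the knockdown.

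The kinetochore is a layered protein assembly. Nucleosomes that carry the histone variant CENP-A recruit an inner network of CENP proteins, which holds an outer layer (the KNL1, MIS12 and NDC80 complexes) that grips microtubules. Unattached kinetochores signal through the checkpoint kinases and MAD and BUB proteins to delay anaphase, while the Aurora B kinase of the passenger complex releases faulty attachments. Many of these genes are transcribed in the G2 and M phases, so their RNA is present in dividing cultures such as A549. In a bulk sample, a different share of cells in mitosis and a different amount of RNA per mitotic cell cannot be told apart.

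In the shDEPDC1B library, 21 of the 46 genes lay 1.5-fold or more above shNC and 5 lay as far below it, and for each of them equality was outside the interval. Over all assessed genes the same rule held for 19.2% in the higher direction and 19.6% in the lower. The higher genes included 3 of the 4 passenger subunits (AURKB, CDCA8 and BIRC5), 3 of the 4 NDC80 complex subunits, 3 of the 4 genes for CENP-A and its deposition, and 7 of 13 genes of the inner centromere network. The lower genes were ZWILCH, CENPE, CENPW, KNTC1 and CENPF. At a stricter fold of 2, AURKB, SPC24, CENPQ and CDCA8 were higher, or 4 genes against 5.86% of all genes, and ZWILCH, CENPE and CENPW were lower, or 3 genes against 8.97%. The ratio was above 1 for 36 of the 46, against 51.9% of all genes. Their median log2 ratio was 0.53 and their mean 0.37, where all assessed genes had a median of 0.04. Exons of 13 of the 46 overlap those of a gene with at least 30 counts over both libraries, and without these and SPC25, whose count may be a mean, 10 of 32 genes were higher, 4 lower and 23 above 1, with a median of 0.42. On GRCh38 (GENCODE 29) the 4 genes at least 2-fold higher are annotated at chr17:8204733-8210600 (AURKB, minus strand), chr19:11131520-11155808 (SPC24, minus strand), chr6:49463378-49493107 (CENPQ, plus strand) and chr1:37692418-37709719 (CDCA8, plus strand), and the 3 at least 2-fold lower at chr15:66504959-66550128 (ZWILCH, plus strand), chr4:103105806-103198409 (CENPE, minus strand) and chr6:126340174-126348875 (CENPW, plus strand). The 46 genes lie on 20 chromosomes. All values are ratios of shDEPDC1B to shNC after scaling with trimmed means, and square brackets hold exact 95% intervals of counting error only.

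**Figure D1:**
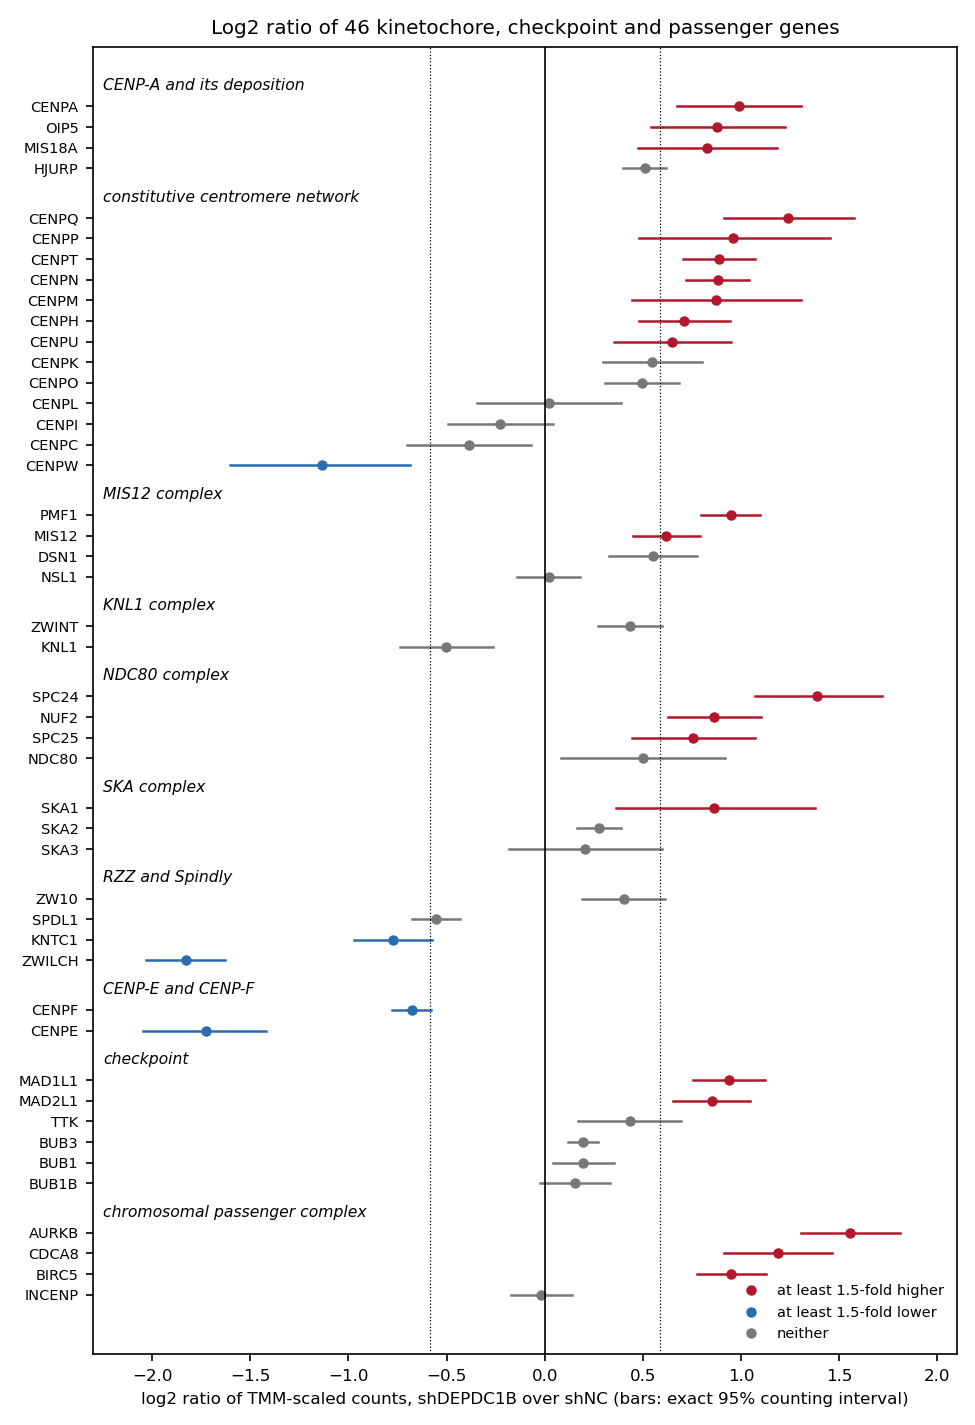
Log2 ratio of each of the 46 genes (horizontal axis, shDEPDC1B over shNC) with its exact 95% counting interval, grouped by role; dotted lines mark 1.5-fold. The 21 higher genes (red) lie in 7 of the 10 role groups, whereas the 5 lower genes (blue) are CENPW, both of CENPE and CENPF, and ZWILCH and KNTC1.

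The libraries held 18647290 counts (shNC) and 18862371 counts (shDEPDC1B), and the counts of single members ran from 54 for SKA1 to 2879 for BUB3. The targeted gene DEPDC1B had 329 and 39 counts, a log2 ratio of -3.0 [-3.51, -2.52], in the direction of its label. The keratins of A549 were abundant in both libraries (KRT8 with 106007 and 103507 counts), and all 6 epithelial markers had counts. Of the markers of other cells, 2 of 6 leukocyte genes, 2 of 6 fibroblast genes and 1 of 6 endothelial genes reached 30 counts. Their summed levels were 14.0 and 21.3 CPM, 10.0 and 12.1 CPM, and 15.4 and 29.6 CPM, against 1107 and 1306 CPM for the 46 genes together. CD3E, DCN and KDR were at 0 in both libraries. Of 6 genes typical of HEK293, a line often used to make lentivirus, 3 reached 30 counts, with sums of 100 and 65.5 CPM and SALL3 at 0. The part of such cells in the ratios was not tested.

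Promoters are shown because many of these genes are known targets of a shared G2/M programme, in which the DREAM and MYB-MuvB complexes bind the cell cycle genes homology region (CHR), often beside an NF-Y box. RefSeq promoter windows (GRCh38.p14, 250 bases before to 50 after the start) were matched for 37 of the 46. No entry was used for BIRC5, BUB3, CENPH, CENPL, CENPM, KNL1, KNTC1, MIS18A and TTK. A CHR word (TTTGAA or TTCGAA, either strand) lay in the window of 21 of the 37 genes, or 56.8%, against 15.5% of 10317 assessed genes with a window and 16.4% of all 35116 windows. The NF-Y box (CCAAT, either strand) was in 25, or 67.6%, against 43.2% of assessed genes and 34.6% of all windows. An E2F core (TTCCCGC or TTGGCGC, either strand) was in 11, or 29.7%, against 17.8% and 9.23%. The following 30-base windows, with the CHR word in capitals and read in the direction of that word, show genes from across the range of ratios.
CDCA8 (chr1:37692481-37692510, plus strand): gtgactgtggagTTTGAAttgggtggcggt
CENPA (chr2:26786026-26786055, plus strand): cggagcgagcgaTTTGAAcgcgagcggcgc
CENPN (chr16:81007205-81007234, plus strand): gcaattggtggcTTTGAAggcgcggcgagc
NUF2 (chr1:163321958-163321987, plus strand): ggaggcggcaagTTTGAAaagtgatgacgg
BUB1B (chr15:40161034-40161063, plus strand): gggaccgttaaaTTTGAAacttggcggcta
INCENP (chr11:62123989-62124018, plus strand): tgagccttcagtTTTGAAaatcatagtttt
CENPW (chr6:126340120-126340149, plus strand): gttggcggcggaTTCGAAcgttcggactga

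Among these lines CDCA8, CENPA, NUF2 and CENPN were at least 1.5-fold higher, BUB1B and INCENP were near equality, and CENPW was lower. The CHR word started at position -23 in CDCA8 and BUB1B, -18 in CENPA, -10 in INCENP, 3 in CENPN, 16 in NUF2 and 17 in CENPW, with the transcription start at 0. The 21 genes with a CHR word had a median log2 ratio of 0.49, from -1.14 to 1.19 (8 higher, 2 lower), and the 16 without one had 0.63, from -1.83 to 1.56 (9 higher, 2 lower). So the word was common in the list, and holders and non-holders overlapped across nearly the whole range. For the E2F core the medians were 0.76 in the 11 holders, with 7 past 1.5-fold on the higher side and 0 on the lower, and 0.50 in the 26 others, with 10 higher and 4 lower. With and without an NF-Y box the medians were 0.62 (25 genes, 13 higher and 3 lower) and 0.50 (12 genes, 4 higher and 1 lower). Of all assessed genes 19.2% were higher and 19.6% lower. Over assessed genes with a window, the medians with and without an E2F core were 0.03 and 0.04. They were -0.04 and 0.05 for the CHR word, and 0.08 and 0.01 for the NF-Y box. A match of letters is no measure of binding, and no match says only that the letters are not in this window.

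The 250 bases before the start are given for CDCA8, a gene among the highest that holds a CHR word, and for ZWILCH, the lowest of all 46, with every match to the CHR, NF-Y and E2F words in capitals.
CDCA8 (chr1:37692266-37692515, plus strand): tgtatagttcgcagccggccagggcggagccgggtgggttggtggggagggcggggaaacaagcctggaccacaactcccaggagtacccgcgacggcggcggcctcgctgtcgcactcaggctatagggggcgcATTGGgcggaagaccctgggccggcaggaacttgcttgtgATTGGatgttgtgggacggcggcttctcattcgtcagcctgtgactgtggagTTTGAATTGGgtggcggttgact
ZWILCH (chr15:66505076-66505325, plus strand): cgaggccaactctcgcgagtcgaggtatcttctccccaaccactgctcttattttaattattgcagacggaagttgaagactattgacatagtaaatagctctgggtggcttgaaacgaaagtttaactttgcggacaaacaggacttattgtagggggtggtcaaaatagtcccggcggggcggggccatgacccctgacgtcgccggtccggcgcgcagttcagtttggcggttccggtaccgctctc
In CDCA8 the CHR word TTTGAA runs by its last base into a reverse NF-Y box, and a further pair of reverse NF-Y boxes lies upstream. The ZWILCH stretch holds none of the words, but its window has a reverse NF-Y box that starts at position 2, after the printed bases. ZWILCH is thus counted above among the 25 genes with an NF-Y box.

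Of CENP-A and the factors that load it, 3 of 4 genes were at least 1.5-fold higher, where 19.2% of all genes were. After a linear fit of the log2 ratio on transcript length and GC content over all genes was subtracted, 2 were, against 12.9%. CENPA, the centromeric histone itself, had 129 counts in shNC and 242 in shDEPDC1B (6.69 and 13.3 CPM), a log2 ratio of 0.99 [0.67, 1.31]. OIP5 and MIS18A, partners in the complex that licenses loading after mitosis, had 116 counts in shNC and 202 in shDEPDC1B (6.02 and 11.1 CPM, 0.88 [0.54, 1.22]) and 109 counts in shNC and 183 in shDEPDC1B (5.65 and 10.0 CPM, 0.83 [0.48, 1.18]). HJURP, the chaperone that delivers CENP-A, had 1205 counts in shNC and 1622 in shDEPDC1B (62.5 and 88.9 CPM), and its ratio of 0.51 [0.40, 0.62] lay above equality but short of 1.5-fold. So all 4 genes were higher beyond counting error, within 0.48 of each other on the log2 scale. OIP5 shares 38% of its exon bases with the opposite-strand OIP5-AS1 (3240 and 3095 counts), which was at 0.01, and the labels do not state whether counting used strand.

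The inner centromere network was mostly higher, with 7 of 13 genes past 1.5-fold, 1 lower and a median of 0.65. Among all genes 19.2% passed on the higher side and 19.6% on the lower. The fit on length and GC content left 5 of the 13 past 1.5-fold on the higher side and 1 on the lower. Their median was then 0.53, and the shares of all genes were 12.9% and 13.5%. With this fit CENPM, CENPH and CENPT fell short of 1.5-fold, whereas CENPK passed it. In the arm of CENP-O, CENP-P, CENP-Q and CENP-U, all ratios were above 1. Without the fit, CENPQ was the highest of the network with 111 counts in shNC and 248 in shDEPDC1B (5.76 and 13.6 CPM, 1.24 [0.91, 1.58]). CENPP had 57 counts in shNC and 105 in shDEPDC1B (2.96 and 5.76 CPM, 0.96 [0.48, 1.45]), CENPU 159 counts in shNC and 236 in shDEPDC1B (8.25 and 12.9 CPM, 0.65 [0.35, 0.95]) and CENPO 411 counts in shNC and 548 in shDEPDC1B (0.49 [0.31, 0.68]). The CENPP exons overlap those of IPPK on the other strand over 38% of their bases, and IPPK (403 and 359 counts) was at -0.09.

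The CENP-H, CENP-I, CENP-K and CENP-M arm did not move as a block. CENPM had 74 counts in shNC and 128 in shDEPDC1B (3.84 and 7.02 CPM, 0.87 [0.45, 1.30]) and CENPH 255 counts in shNC and 395 in shDEPDC1B (13.2 and 21.7 CPM, 0.71 [0.48, 0.94]). CENPK, at 0.55 [0.30, 0.80] with 229 counts in shNC and 317 in shDEPDC1B, was just short of 1.5-fold. CENPI had 262 counts in shNC and 212 in shDEPDC1B and a ratio of -0.23 [-0.49, 0.04], an interval that holds equality. In the CENP-L and CENP-N pair, CENPN, which reads the CENP-A nucleosome, had 501 counts in shNC and 873 in shDEPDC1B (26.0 and 47.9 CPM, 0.88 [0.72, 1.04]). CENPN shares 12.8% of its exon bases with the opposite-strand CMC2 (545 and 861 counts), which was at 0.74. For CENPL, the partner of CENPN, with 128 counts in shNC and 123 in shDEPDC1B, no difference was detectable at this depth (0.02 [-0.35, 0.39]). The sign of CENPL turned with DESeq2 size factors, library totals, protein-coding genes alone and a loess on mean expression or on length.

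CENPT and CENPW, histone-fold partners that bind DNA together and reach out to the NDC80 complex, stood on opposite sides. CENPT had 387 counts in shNC and 677 in shDEPDC1B (20.1 and 37.1 CPM, 0.89 [0.70, 1.07]). The CENPT exons overlap those of NUTF2 (1.99% of their bases) and THAP11 (6.86%) on the other strand, which were at 0.75 and -0.22. CENPW had 137 counts in shNC and 59 in shDEPDC1B (7.11 and 3.23 CPM, -1.14 [-1.60, -0.69]). The ratios of the partners lay 2.02 apart on the log2 scale, and their intervals did not overlap. Per kb of transcript, CENPT was at 8.56 and 15.8 CPM in shNC and shDEPDC1B and CENPW at 9.47 and 4.31. The levels of the partners were close in shNC and further apart in shDEPDC1B, as far as the longest annotated transcripts are those expressed. CENPC, the scaffold that links CENP-A nucleosomes to the MIS12 complex, had 200 counts in shNC and 145 in shDEPDC1B and a ratio of -0.38 [-0.70, -0.07]. The sign of CENPC turned after the fit on length and GC content (0.16 [-0.16, 0.47]) and with a loess on length (0.05).

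In the outer layer, 3 of 4 genes of the NDC80 complex and 2 of 4 of the MIS12 complex were at least 1.5-fold higher. Of all genes 19.2% were. After a linear fit of the log2 ratio on transcript length and GC content over all genes was subtracted, 2 and 1 were, against 12.9% of all genes. The NDC80 complex is a rod with the microtubule-binding heads of NDC80 and NUF2 at the outer end and SPC24 and SPC25 at the kinetochore end. SPC24 had 113 counts in shNC and 280 in shDEPDC1B (5.86 and 15.3 CPM, 1.39 [1.07, 1.72]), the second highest ratio of the 46. NUF2 followed with 237 counts in shNC and 408 in shDEPDC1B (12.3 and 22.4 CPM, 0.86 [0.63, 1.10]) and SPC25 with 139 counts in shNC and 222 in shDEPDC1B (7.21 and 12.2 CPM, 0.76 [0.44, 1.07]). NDC80 had 86 counts in shNC and 115 in shDEPDC1B (4.46 and 6.30 CPM), and its ratio of 0.50 [0.08, 0.92] excluded equality without reaching 1.5-fold. All 4 subunits were thus higher beyond counting error, with a median of 0.81. The deposited estimated count of SPC25, unlike most others, has more than 2 decimals, as a mean over several entries would, so its value is less certain.

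The MIS12 complex ties this rod to the inner layer. PMF1 had 560 counts in shNC and 1022 in shDEPDC1B (29 and 56.0 CPM, 0.95 [0.80, 1.10]) and MIS12 478 counts in shNC and 694 in shDEPDC1B (24.8 and 38 CPM, 0.62 [0.45, 0.79]). DSN1, with 286 counts in shNC and 396 in shDEPDC1B, was at 0.55 [0.33, 0.77], just short of 1.5-fold. NSL1 had 665 counts in shNC and 638 in shDEPDC1B (34.5 and 35.0 CPM, 0.02 [-0.14, 0.18]), close to equality. The sign of NSL1 turned with DESeq2 size factors, library totals, protein-coding genes alone and a loess on mean expression or on length. PMF1 shares 23.3% of its exon bases with the read-through gene PMF1-BGLAP, which had 34 and 63 counts and a ratio of 0.97. MIS12 shares 9.53% of its exon bases with the opposite-strand DERL2 (1146 and 1738 counts), which was at 0.68. KNL1, the platform on which BUB proteins gather, had 371 counts in shNC and 248 in shDEPDC1B (19.2 and 13.6 CPM, -0.50 [-0.74, -0.27]), and its partner ZWINT had 556 counts in shNC and 710 in shDEPDC1B (28.8 and 38.9 CPM, 0.43 [0.27, 0.60]). Without a fit these partners lay on opposite sides of equality, and neither reached 1.5-fold. After the fit on length and GC content both were above it, KNL1 at 0.18 [-0.06, 0.41] and ZWINT at 0.28 [0.12, 0.45]. The sign of KNL1 also turned with a loess on length (0.10).

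The SKA complex helps the NDC80 complex to follow shrinking microtubules. SKA1, the least counted of the 46, had 54 counts in shNC and 93 in shDEPDC1B (2.80 and 5.10 CPM, 0.86 [0.37, 1.38]). SKA2 had 1201 counts in shNC and 1378 in shDEPDC1B (0.28 [0.17, 0.39]) and SKA3 had 108 counts in shNC and 118 in shDEPDC1B (5.60 and 6.47 CPM, 0.21 [-0.18, 0.60]). Only for SKA3 of these 3 did the interval hold equality, and SKA1 alone passed 1.5-fold.

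**Figure D2:**
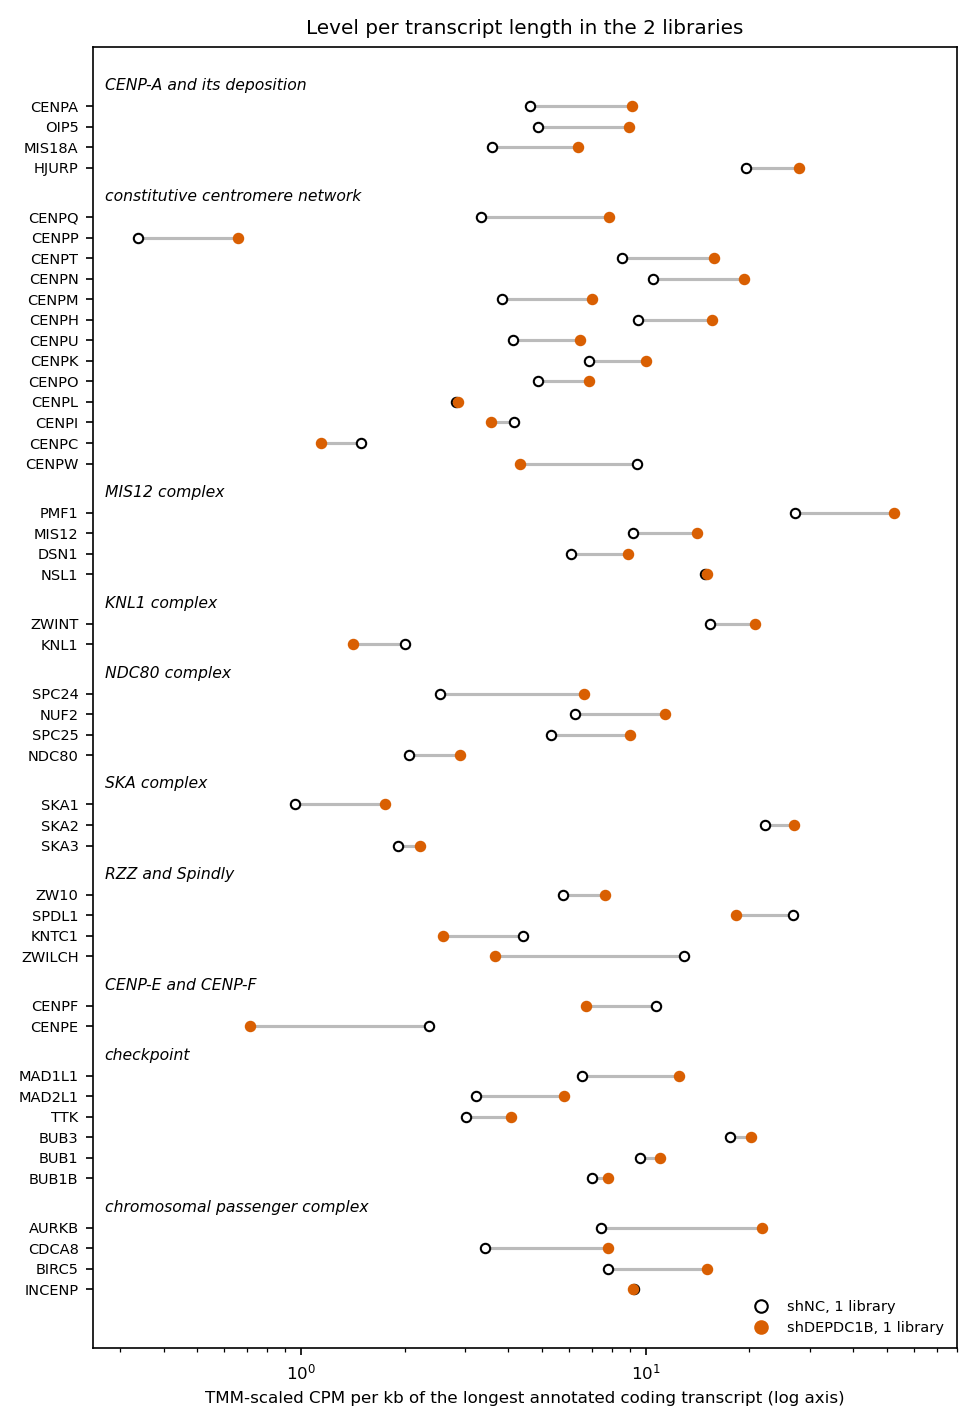
Level of each gene in CPM per kb of its longest annotated coding transcript (log axis), open circles for the shNC library and filled circles for shDEPDC1B. PMF1, HJURP and SKA2 are among the highest levels, CENPP is the lowest in both libraries, and the long grey lines that run to the left are ZWILCH, CENPE and CENPW.

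Of the 5 lower genes, ZWILCH and KNTC1 belong to the RZZ complex with ZW10, while CENPE and CENPF encode the kinesin CENP-E and the large coiled-coil protein CENP-F. The RZZ complex brings MAD1 and MAD2 and, through its adaptor Spindly (SPDL1), the motor dynein to unattached kinetochores. ZWILCH had 990 counts in shNC and 264 in shDEPDC1B (51.3 and 14.5 CPM), or 3.55-fold lower, a log2 ratio of -1.83 [-2.03, -1.63]. CENPE had 392 counts in shNC and 112 in shDEPDC1B (20.3 and 6.14 CPM), or 3.31-fold lower (-1.73 [-2.04, -1.42]). KNTC1 had 594 counts in shNC and 329 in shDEPDC1B (30.8 and 18 CPM, -0.77 [-0.97, -0.58]) and CENPF 2129 counts in shNC and 1259 in shDEPDC1B (110.4 and 69.0 CPM, -0.68 [-0.78, -0.58]). SPDL1, with 1376 counts in shNC and 888 in shDEPDC1B (71.4 and 48.7 CPM), was 1.47-fold lower at -0.55 [-0.68, -0.43], just short of the fold. ZW10, with 332 counts in shNC and 415 in shDEPDC1B (17.2 and 22.7 CPM), went the other way at 0.40 [0.19, 0.61]. So 2 of the 4 RZZ and Spindly genes and both of CENPE and CENPF were at least 1.5-fold lower, where 19.6% of all genes were, and the 3 RZZ subunits spanned 2.23 on the log2 scale. CENPE, CENPF and KNTC1 are among the longest transcripts, and after the fit on length and GC content ZWILCH and CENPE were the lower ones of these 6 genes.

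Part of the ZWILCH locus is shared: 158 exon bases, or 3.26% of its exons, overlap the ribosomal protein gene RPL4 on the opposite strand. RPL4 had 43839 and 61347 counts and a log2 ratio of 0.56, in the direction opposite to ZWILCH. Per kb of transcript, ZWILCH was at 13.0 and 3.65 CPM and its complex partners ZW10 at 5.76 and 7.60 and KNTC1 at 4.42 and 2.59. On this scale ZWILCH had the highest level of the 3 RZZ transcripts in shNC and ZW10 in shDEPDC1B, as far as the longest annotated transcripts are those expressed.

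All 6 checkpoint genes had a ratio above 1, where 51.9% of all genes had. MAD1L1 and MAD2L1 passed 1.5-fold on the higher side, where 19.2% of all genes did. After the fit on length and GC content BUB3 (0.73 [0.65, 0.81]) and TTK (0.66 [0.40, 0.93]) passed as well. With the fit 4 of 6 thus passed, against 12.9% of all genes. MAD1L1, which anchors MAD2 at kinetochores, had 376 counts in shNC and 682 in shDEPDC1B (19.5 and 37.4 CPM, 0.94 [0.76, 1.12]). MAD2L1, which encodes the MAD2 protein that inhibits CDC20, had 340 counts in shNC and 580 in shDEPDC1B (17.6 and 31.8 CPM, 0.85 [0.65, 1.05]). The upstream kinase TTK, also called MPS1, had 217 counts in shNC and 277 in shDEPDC1B (0.43 [0.17, 0.70]). BUB3 had 2654 counts in shNC and 2879 in shDEPDC1B (0.20 [0.12, 0.27]), and BUB1 664 counts in shNC and 720 in shDEPDC1B (0.20 [0.04, 0.35]). BUB1B, which encodes BUBR1, was the lowest of the group with 503 counts in shNC and 529 in shDEPDC1B (26.1 and 29 CPM, 0.15 [-0.03, 0.33]), an interval that holds equality. The intervals of MAD1L1 and MAD2L1 did not overlap those of the 3 BUB genes, but after the fit MAD1L1 (0.65 [0.46, 0.83]) overlapped BUB1 (0.38 [0.22, 0.53]), BUB1B (0.34 [0.16, 0.51]) and BUB3, so that of the MAD genes MAD2L1 alone (1.27 [1.07, 1.47]) stood apart from all 3.

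The chromosomal passenger complex contained the highest gene of the whole list. AURKB, the kinase that corrects attachments, had 179 counts in shNC and 498 in shDEPDC1B (9.28 and 27.3 CPM), 2.94-fold higher at 1.56 [1.31, 1.81]. CDCA8, which encodes borealin, had 163 counts in shNC and 351 in shDEPDC1B (8.45 and 19.2 CPM, 1.19 [0.91, 1.46]). BIRC5, which encodes survivin, had 407 counts in shNC and 744 in shDEPDC1B (21.1 and 40.8 CPM, 0.95 [0.77, 1.13]). INCENP, the scaffold that binds and activates the kinase, had 709 counts in shNC and 663 in shDEPDC1B (36.8 and 36.3 CPM), a ratio of -0.02 [-0.17, 0.14] with no detectable difference. The kinase and both subunits that target it to centromeres were therefore higher, and the scaffold was not. Per kb of transcript, AURKB was at 7.40 and 21.8 CPM and INCENP at 9.28 and 9.17, values that rest on the longest annotated transcripts.

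Transcript length moved with these ratios, as it did across all genes. Over the 46 genes, Spearman's rho between the log2 ratio and the length of the longest coding transcript was -0.50 (Pearson's r with log2 length -0.45), and over 13013 assessed genes with a length it was -0.51 (-0.44). These are descriptions across genes of the same 2 libraries, not independent replicates. Of the 14 members in the shortest quartile of genes, up to 2166 nucleotides, 11 were at least 1.5-fold higher and 1, CENPW, was lower, where 39.8% and 5.84% of all genes of that length were. Of the 8 in the longest quartile, above 5217 nucleotides, 2 were higher (CENPP and MAD2L1) and 3 lower (CENPE, CENPF and KNTC1), where 5.01% and 41.8% of all genes were. In the middle quartiles, 8 of 18 members were higher and 0 lower up to 3405 nucleotides (20.8% and 9.44% of genes), and 0 of 6 higher and 1 lower, ZWILCH, above it (10.5% and 19.2%). In all, 35 of the 46 lay above the median of genes of their own length quartile. How much of each ratio goes with length, RNA quality or library preparation was not tested, and the longest annotated transcript need not be the one A549 uses.

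**Figure D3:**
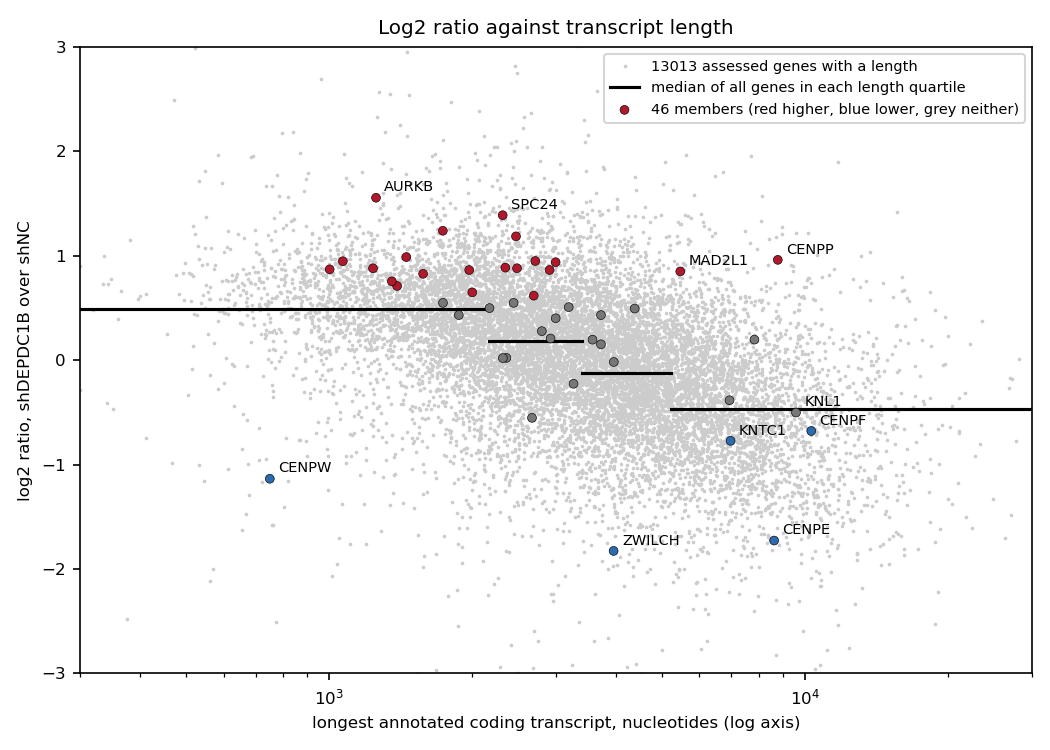
Log2 ratio (vertical axis) against the longest annotated coding transcript in nucleotides (log axis) for 13013 assessed genes (light grey dots) and the 46 members (large points). Black lines give the median of all genes in each length quartile, from 0.49 in the shortest to -0.47 in the longest, and AURKB, SPC24, CENPP and MAD2L1 lie above and CENPW, ZWILCH and CENPE below the median line of their quartile.

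When a linear fit on length and GC content over all genes was subtracted, 18 members were at least 1.5-fold higher and 3 lower, against 12.9% and 13.5% of all genes, and the median was 0.52. CENPW (-1.52 [-1.99, -1.07]), ZWILCH (-1.51 [-1.71, -1.31]) and CENPE (-1.04 [-1.35, -0.73]) were the 3 lower genes under this fit. CENPF (-0.02 [-0.12, 0.08]) lay at equality and KNTC1 (-0.27 [-0.47, -0.07]) within 1.5-fold. AURKB (1.04 [0.79, 1.29]), SPC24 (1.17 [0.85, 1.5]), CDCA8 (1.03 [0.76, 1.31]) and CENPQ (1.29 [0.96, 1.62]) were still higher, as was MAD2L1. Of the 21 genes higher without the fit, 6 came below 1.5-fold: PMF1 (0.35 [0.20, 0.50]), CENPM (0.14 [-0.28, 0.57]), CENPH (0.49 [0.26, 0.73]), OIP5 (0.53 [0.19, 0.87]), CENPT (0.57 [0.39, 0.76]) and SPC25 (0.58 [0.26, 0.89]). The 3 genes BUB3, TTK and CENPK (0.61 [0.37, 0.87]) were higher with the fit and not without it. With a loess on length alone, 13 members were at least 1.5-fold higher and 4 lower, against 13.0% and 15.0% of all genes, with a median of 0.30.

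Neighbouring gene groups give the setting. Of 16 other G2/M genes, 8 passed 1.5-fold on the higher side and 2 on the lower (MKI67 and ASPM), against 19.2% and 19.6% of all genes. The median of the 16 was 0.54. Highest by interval bound were PRC1 (1.15 [1.04, 1.26]), KIF20A (1.18 [1.0, 1.37]), UBE2C (1.12 [0.96, 1.29]) and PTTG1 (1.01 [0.87, 1.14]). After the fit on length and GC content 7 of the 16 were higher and 0 lower, against 12.9% and 13.5% of all genes. UBE2C was then at 0.58 and PTTG1 at 0.54, both short of 1.5-fold. Of 18 G1/S genes, 3 were higher (CDC45, GINS2 and CDT1) and 2 lower (UHRF1 and CCNE2), with a median of 0.26, and after the fit 2 were higher and 1 lower. Of 20 regulators of G2/M transcription, 2 were higher and 2 lower, with a median of -0.10. The activator MYBL2 was at 0.81 [0.64, 0.97] and the MuvB subunit LIN37 at 0.79 [0.44, 1.14], while LIN54, the subunit that binds the CHR, was at -0.80 [-1.09, -0.51] and the pocket protein RBL2 at -0.88 [-1.02, -0.75]. FOXM1 was at 0.23 [0.05, 0.40]. After the fit on length and GC content 0 of the 20 regulators passed in either direction, with MYBL2 at 0.51, LIN37 at 0.16, LIN54 at -0.32 and RBL2 at -0.58. For the regulators and the G1/S genes the shares in both directions lay below those of all genes.

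Of 30 other kinetochore, centromere and checkpoint factors, 7 were at least 1.5-fold higher and 3 lower, against 19.2% and 19.6% of all genes. The median of the 30 was 0.25. After the fit 5 were higher and 1 lower, against 12.9% and 13.5% of all genes. SPAG5, or astrin, which steadies bound microtubules, was at 1.30 [1.15, 1.46], and TRIP13, the ATPase that disassembles the checkpoint complex, at 1.08 [0.89, 1.28]. CDC20, the target of that complex, was at 0.91 [0.74, 1.08], and at 0.49 after the fit. ITGB3BP, which encodes CENP-R of the CENP-O arm, was at 1.01 [0.73, 1.30] and was named after its value was seen.

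**Figure D4:**
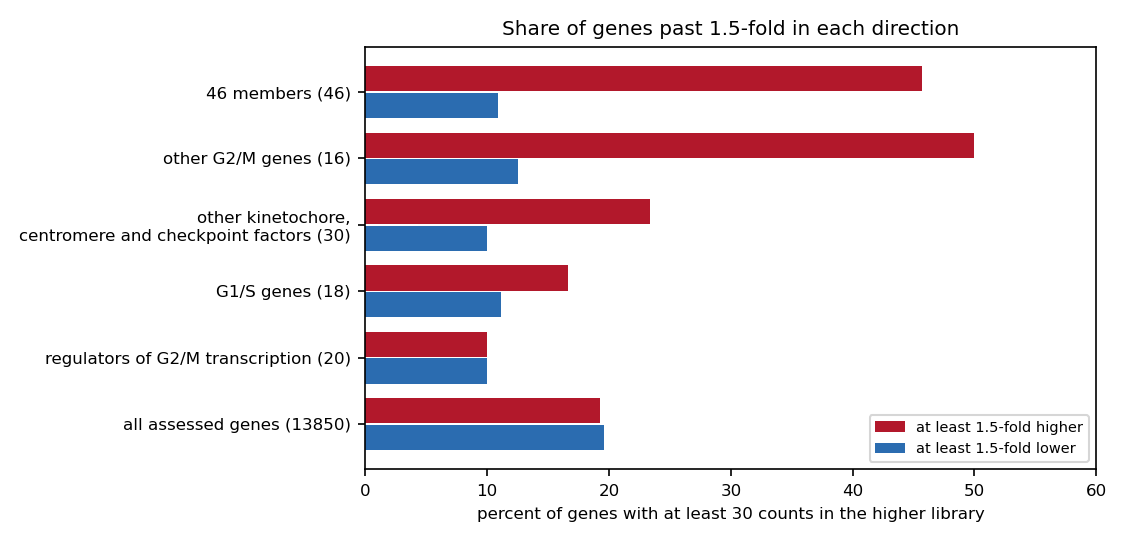
Percent of genes at least 1.5-fold higher (red) and lower (blue) in the shDEPDC1B library, for the 46 members, 4 neighbouring gene groups and all 13850 assessed genes, with the number of genes in brackets. The members, with 21 higher and 5 lower, and the other G2/M genes, with 8 and 2, have longer red bars than all genes, and the regulators do not.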

How the data were processed

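RNA was sequenced in 1 library each of shNC and shDEPDC1B A549 cells. The authors deposited estimated counts by gene symbol, unscaled, which the submitters' processing notes tie to Bowtie2, RSEM and hg38. The notes hold no versions, annotation or strand setting. Counts were rounded to whole numbers, and TMM scaling factors (edgeR 4.0.16, R 4.3.3) came to 1.03 in the shNC library and 0.967 in the other. CPM are counts relative to the TMM-scaled library size. No test was run, since a group is 1 library. The interval of a ratio is the exact Clopper-Pearson one, at 95%, for how the counts of a gene divide between libraries (scipy 1.17.1), and without molecular identifiers it covers counting error only. A gene was assessed from 30 counts in its higher library. It was taken as higher or lower from 1.5-fold on, if equality lay outside the interval.

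Coordinates, exon overlaps, lengths and GC are from GENCODE 29 (GRCh38), with the longest coding transcript per symbol, known for all 46 members and 94.0% of assessed genes. A linear fit on log2 length and GC took up 24.6% of the variance. Promoters are from RefSeq (GRCh38.p14). Every member was named, and of each neighbouring list up to 4 genes past 1.5-fold with the interval bound farthest from equality. FOXM1, MKI67, ASPM, CCNE2, ITGB3BP and overlapping genes stand outside that rule. Some genes that the rule would name are not reported here. The members, lists and rules were chosen with earlier results of these data known. The steps were tested on simulated data. Alternatives covered scaling (with DESeq2 1.42.0 size factors), filters, the fold, the interval, the prior count, length and GC, mean expression and the gene set, and 1 was added after the data were seen.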

Additional observations from a re-analysis of the deposited data

How the results depend on the processing

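Ratios of 2 libraries have counting error alone behind them, and the spread between cultures is unknown. No paired analysis was possible because each group has 1 library, and no library could be left out. The number of members at least 1.5-fold higher, 21, stayed within 1.5 times of itself under the other scalings, filters, interval and prior count, the loess on mean expression, the length and GC fit and the protein-coding genes, from 18 to 21. It was 13 with a loess on length. The number lower, 5, was 3 after the length and GC fit, and from 4 to 7 elsewhere at that fold. At 2-fold the counts were 4 higher (5.86% of all genes) and 3 lower (8.97%), and at a lower limit (a ratio of 5 to 4) 29 higher (31.5%) and 8 lower (28.8%). Library totals shifted all log2 ratios by -0.10 and gave 19 higher and 7 lower (14.6% and 23.2% of all genes). Without the 14 members whose exons overlap a gene with at least 30 counts over both libraries or whose deposited value has more than 2 decimals, chosen after the data were seen, 10 of 32 were higher, 4 lower and 23 above 1, with a median of 0.42. This set has fewer genes. The median of the members was between 0.30 and 0.53 under every alternative. No member past 1.5-fold changed sign under any of them.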
